A study of Mus musculus with 8 samples.

Results

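Genes of polyamine and creatine metabolism were examined in mouse muscle with and without a plasmid for ATF4, the transcription factor through which stressed cells turn on amino acid synthesis and uptake. The set has 10 genes, chosen by name: Odc1, Amd1, Srm, Sms, Sat1, Smox and Oaz2 for polyamines, and Gatm, Gamt and Slc6a8 for creatine. A gene was read from a probe set annotated to that gene alone, and 7 of the 10 had such a probe set, 1 each, among the 14860 genes measured this way. Odc1, Amd1 and Sat1 had none and were not analysed here, so the rate-limiting steps of polyamine synthesis and the acetylation of spermidine and spermine are outside these results.

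The 8 arrays measured the tibialis anterior, the muscle along the shin, in 8-week-old C57BL/6 males. The left muscle was electroporated with 25 µg of empty pcDNA3 (the group called empty vector) and the right with 25 µg of pCMV-ATF4-FLAG, a plasmid for FLAG-tagged ATF4 (the group called ATF4, after its label). RNA was taken on day 11 from fed mice, and the experiment was done 4 times, giving 4 arrays per group in 4 pairs. All muscles were electroporated, plasmid and leg cannot be told apart, and the sources used here state neither the share of fibres that took up plasmid nor how many mice made up an experiment. Every difference is the ATF4 muscle minus the empty vector muscle, in log2 units, where a muscle stands for the RNA on 1 array. Atf4 itself differed by 0.18 (SE 0.11, limma adjusted p = 0.846), and since the part of the transcript that its probes cover is not known here, this does not check the label. Of a list of Atf4 and 7 known target genes, 4 were higher in 4 of 4 pairs, against 8.25% of all probe sets. Of the list, 0 passed the adjusted threshold. It was already reported for these data, so its counts are not an independent check.

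Polyamines are small positively charged molecules that bind RNA and are needed for translation and growth. Putrescine is made from ornithine by the product of Odc1. It is extended to spermidine by spermidine synthase and then to spermine by spermine synthase, with aminopropyl groups that come from S-adenosylmethionine through the product of Amd1. Spermine oxidase turns spermine back into spermidine, and antizymes bind ornithine decarboxylase and send it to the proteasome. In mouse muscle Smox is known to be repressed in several forms of atrophy. Creatine is made from arginine and glycine by the products of Gatm and then Gamt, the second step using S-adenosylmethionine as methyl donor, and Slc6a8 carries creatine into the fibre, where creatine kinases charge it to phosphocreatine as an energy store.

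Gamt and Smox had the smallest p-values among the 7 measured genes, and neither passed the test over all probe sets. Gamt was higher with ATF4 by 0.44 (SE 0.15) and Smox was lower by -0.37 (SE 0.14), each in 4 of 4 pairs. The upstream sequences of these genes are shown because both differed the same way in every pair and ATF4 binds DNA. They are the 250 bases before the annotated start, credited to RefSeq on build GRCm38.p6, with Gamt at chr10:80261013-80261262 on the minus strand and Smox at chr2:131491612-131491861 on the plus strand. For reference, 39 bases of the Asns upstream window follow, from chr6:7693210-7693248 on the minus strand, with the match to the ATF4-C/EBP composite motif in capitals.
Gamt: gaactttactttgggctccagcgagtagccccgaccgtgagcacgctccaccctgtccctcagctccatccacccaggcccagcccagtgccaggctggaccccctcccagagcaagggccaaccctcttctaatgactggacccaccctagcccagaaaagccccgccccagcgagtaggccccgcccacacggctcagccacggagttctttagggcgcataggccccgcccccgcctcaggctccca
Smox: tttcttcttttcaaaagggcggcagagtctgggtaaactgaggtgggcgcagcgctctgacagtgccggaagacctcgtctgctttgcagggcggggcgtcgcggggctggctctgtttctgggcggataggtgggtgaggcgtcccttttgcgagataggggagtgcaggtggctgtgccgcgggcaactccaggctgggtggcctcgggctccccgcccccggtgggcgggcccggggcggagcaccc
Asns: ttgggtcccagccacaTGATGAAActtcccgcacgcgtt

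The motifs searched on both strands were the composite TGATGNAA, where N is any base, and the cAMP response element TGACGTCA. No sequence can match both at the same position and strand. The composite was found in 3.45% and the cAMP response element in 1.55% of the 32851 upstream windows of all genes. Of the 9 windows that belong to 8 of the 10 genes, 0 held either motif, Gamt and Smox included. Srm and Slc6a8 had no window in the table. Absence from these windows says nothing about sites elsewhere.

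Of the 7 measured genes, 0 passed an adjusted p of 0.05 in limma, where 3 of 16755 probe sets passed (0.0179%). At an unadjusted p under 0.05 there were 2 of 7, Gamt higher and Smox lower, against 6.00% of all probe sets, 3.23% higher and 2.77% lower. That count was 3 with array weights, when Sms joined, 1 without the pairing, when only Gamt remained, and 0 without experiment 3. It stayed at 2 without experiment 1, but as Smox and Oaz2, and without experiment 4, but as Gamt and Sms. The difference had the same sign in all pairs for 3 of 7 genes, Gamt, Smox and Srm, against 14.9% of probe sets (8.25% higher and 6.64% lower). In none of the 7 did the groups separate fully, which 2.16% of probe sets did. In each of the 4 experiments 3 of the 7 were higher and 4 were lower, though not the same genes each time, and the median difference of the 7 was -0.06, beside 0.02 over all genes. The measured genes lay between the 69.4 percentile (Srm) and the 94.97 percentile (Smox) of all probe sets by mean level.

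**Figure D1:**
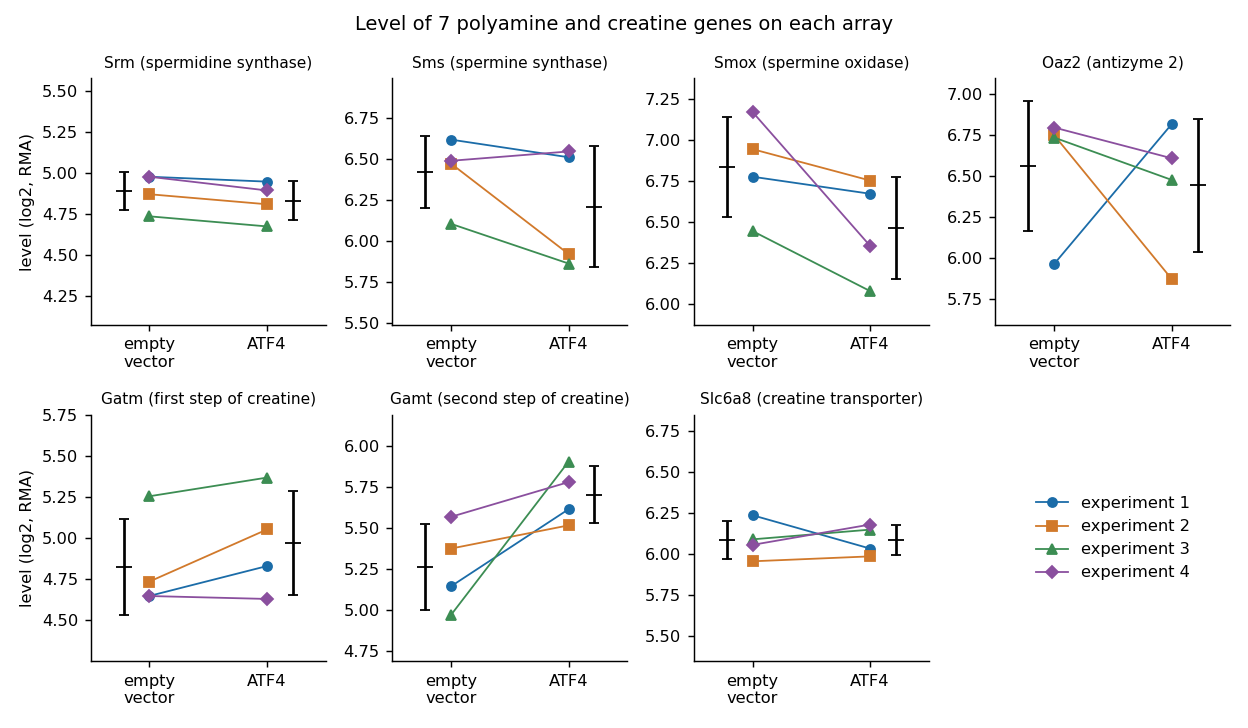
Level of each measured gene (log2, vertical axis) on the 8 arrays. Lines join the 2 arrays of an experiment, and black bars are mean ± SD (n = 4). Every panel spans the same range of log2 units. Smox sloped down and Gamt up in 4 of 4 experiments, while the lines of Oaz2 crossed.

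Among the synthases, Srm varied least. Srm, spermidine synthase (probe set 6918720), read 4.98, 4.87, 4.74 and 4.98 with empty vector in experiments 1 to 4 and 4.95, 4.81, 4.68 and 4.89 with ATF4. Every ATF4 value was slightly under its partner, and the groups overlapped. The mean was 4.89 ± 0.11 (SD, n = 4) against 4.83 ± 0.12 (SD, n = 4), a difference of -0.06 (SE 0.11, limma adjusted p = 0.942). The 95% interval ran from -0.30 to 0.18, so a rise above 1.14-fold or a fall beyond 1.23-fold lies outside it.

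Sms, spermine synthase (probe set 7020410), read 6.62, 6.47, 6.10 and 6.49 with empty vector and 6.51, 5.92, 5.86 and 6.54 with ATF4. It was lower in experiments 1 to 3 and slightly higher in experiment 4, with overlapping groups. The mean went from 6.42 ± 0.22 to 6.21 ± 0.37 (SD, n = 4), a difference of -0.21 (SE 0.13, 95% interval -0.51 to 0.09, limma adjusted p = 0.846). Experiment 2 held the largest of the 4 differences, -0.55, and without it the mean difference was -0.10. Without experiment 4 the mean difference was -0.30.

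Smox, spermine oxidase (probe set 6881267), was the member with the most negative mean difference. It read 6.78, 6.94, 6.45 and 7.17 with empty vector and 6.67, 6.75, 6.08 and 6.36 with ATF4. The ATF4 muscle was the lower of each pair, but the highest ATF4 value, in experiment 2, exceeded the lowest empty vector value, in experiment 3. The mean went from 6.83 ± 0.31 to 6.47 ± 0.31 (SD, n = 4), 1.29-fold lower (difference -0.37, SE 0.14, 95% interval -0.69 to -0.05, limma adjusted p = 0.794). The differences in experiments 1 to 4 were -0.10, -0.19, -0.37 and -0.82. Experiment 4 had both the highest empty vector value and the largest difference, and without it the mean difference was -0.22 (SE 0.10, limma adjusted p = 0.846). In experiment 4 the ATF4 array also had a narrower spread over all probe sets (SD 1.14) than its partner (SD 1.31), and with quantile normalization of all arrays the Smox difference was -0.28.

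Oaz2, antizyme 2 (probe set 6989949), was the most variable member between pairs. It read 5.97, 6.75, 6.73 and 6.80 with empty vector and 6.82, 5.87, 6.48 and 6.61 with ATF4. The low value sat in the empty vector muscle in experiment 1 and in the ATF4 muscle in experiment 2, and the groups overlapped almost entirely. The differences were 0.85, -0.88, -0.26 and -0.19, with a mean of -0.12 (SE 0.24, 95% interval -0.68 to 0.44, limma adjusted p = 0.951). Without experiment 1 the mean was -0.44 and without experiment 2 it was 0.14, so these data give no direction for Oaz2.

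Of the creatine genes, Gatm differed little and followed the experiment. Gatm, arginine:glycine amidinotransferase (probe set 6890448), read 4.65, 4.74, 5.26 and 4.65 with empty vector and 4.83, 5.05, 5.37 and 4.63 with ATF4. Both muscles of experiment 3 were high, and the ATF4 muscle was the higher of 3 pairs of 4. The mean went from 4.82 ± 0.29 to 4.97 ± 0.32 (SD, n = 4), a difference of 0.15 (SE 0.11, 95% interval -0.11 to 0.41, limma adjusted p = 0.859). Experiment 3 was also the one in which macrophage markers stood highest. Of 9 listed symbols, among them Emr1 and Adgre1 for the same gene, 8 were measured. Their mean was 6.82 there with empty vector, against 5.73 to 5.96 in the other experiments. With ATF4 it was 6.87, against 5.83 to 6.44. Their part in the Gatm level was not tested.

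Gamt, guanidinoacetate methyltransferase (probe set 6775355), was the member with the most positive mean difference. It read 5.14, 5.37, 4.97 and 5.57 with empty vector and 5.61, 5.52, 5.90 and 5.78 with ATF4. The ATF4 muscle was the higher of each pair, and the groups touched through a single value, the empty vector muscle of experiment 4, which exceeded the ATF4 muscle of experiment 2. The mean went from 5.26 ± 0.26 to 5.70 ± 0.17 (SD, n = 4), 1.36-fold higher (difference 0.44, SE 0.15, 95% interval 0.09 to 0.79, limma adjusted p = 0.779). The differences were 0.47, 0.14, 0.93 and 0.21. Experiment 3 had the lowest empty vector value and the highest ATF4 value, and without it the mean difference was 0.27 (SE 0.16, limma adjusted p = 0.981).

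Slc6a8, the creatine transporter of the fibre membrane (probe set 7011944), did not separate the groups. It read 6.24, 5.96, 6.09 and 6.06 with empty vector and 6.03, 5.99, 6.15 and 6.18 with ATF4. The differences were -0.20, 0.03, 0.06 and 0.12, with a mean of 0.002 (SE 0.11, limma adjusted p = 0.999). Its 95% interval ran from -0.26 to 0.26, so a change beyond 1.20-fold either way lies outside it.

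**Figure D2:**
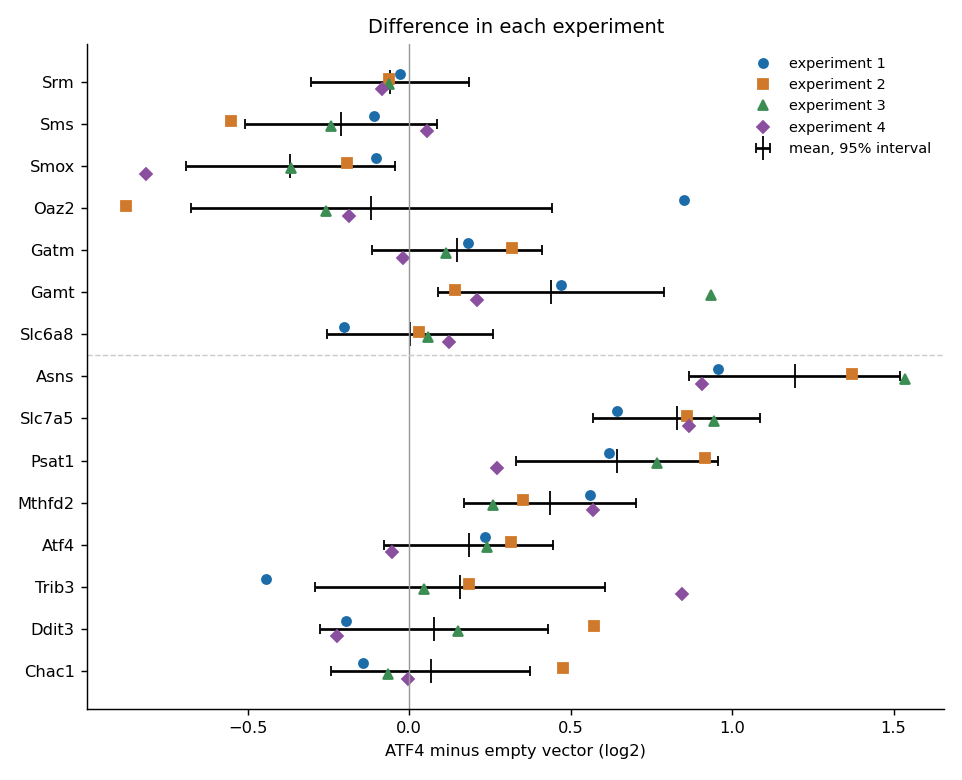
ATF4 minus empty vector (log2, horizontal axis) for the 7 measured genes, and below the dashed line for Atf4 and 7 known target genes; symbols are the 4 experiments, and black bars the mean with its 95% interval. Only Gamt and Smox among the 7 have intervals that exclude 0, before any adjustment. Below the line 4 of the 8 genes do, Asns, Slc7a5, Psat1 and Mthfd2, against 6.00% of all probe sets.

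For scale, Atf4 and 7 known target genes were read in the same fit. All 8 were higher on average, with a median of 0.31 and 0 past the adjusted threshold. Asns, asparagine synthetase, differed by 0.96, 1.37, 1.54 and 0.91 in experiments 1 to 4 (mean 1.19, SE 0.14, limma adjusted p = 0.0741). Slc7a5, a carrier of large neutral amino acids, differed by 0.64, 0.86, 0.94 and 0.87 (mean 0.83, SE 0.11, limma adjusted p = 0.131). These are the 2 of 8 in which the groups did not overlap, against 2.16% of all probe sets, on a list already reported for these data. Psat1 of serine synthesis differed by 0.64 (SE 0.14), more than Gamt, and Mthfd2 of mitochondrial folate metabolism by 0.44 (SE 0.12), as much as Gamt, each in 4 of 4 pairs. Trib3, Ddit3 and Chac1, stress response genes, differed by 0.16 (SE 0.19), 0.08 (SE 0.15) and 0.07 (SE 0.13), less than Gamt or Smox, and were higher in 3, 2 and 1 of 4 pairs.

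The means and SEs above come from arrays of whole muscle, in which fewer cells of a type and less RNA per cell cannot be told apart. Markers of muscle fibres, 6 measured of 8 listed, all lay at or above the 99.6 percentile, and their mean ranged from 10.14 to 10.24 in the empty vector muscles and from 10.01 to 10.28 in the ATF4 muscles. Across experiments 1 to 4 it was shifted by 0.04, -0.05, -0.05 and -0.15, and 6 of 6 were lower on average. The mean of the macrophage markers differed by 0.35, 0.56, 0.05 and 0.10, with 7 of 8 higher, and that of the 7 fibroblast markers by 0.25, -0.03, -0.05 and 0.38, with 4 of 7 higher. Adipocyte (5 measured of 6), endothelial (5 of 5) and Schwann cell markers (3 of 5) differed on average by -0.06, -0.11 and 0.16. No marker passed the adjusted threshold. At an unadjusted p under 0.05 there were 0 of 6 muscle fibre, 2 of 8 macrophage and 2 of 7 fibroblast markers, against 6.00% of all probe sets. Of the adipocyte, endothelial and Schwann cell markers there was 1 each, of 5, 5 and 3 measured. The part of these cells in the Gamt and Smox differences was not tested.

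Other genes of polyamine metabolism and of arginine supply, which feeds ornithine, showed no member past the test. The 27 listed symbols include Abp1 and Adc, older names of Aoc1 and Azin2. Of them 17 were measured, 12 higher and 5 lower, and 0 had an unadjusted p under 0.05. The median difference was 0.06 beside 0.02 over all genes. Oat, ornithine aminotransferase, and Dhps, which uses spermidine to modify the translation factor eIF5A, had the smallest p-values. Oat read 6.35, 5.86, 6.03 and 6.63 with empty vector and 5.97, 5.81, 5.95 and 6.33 with ATF4, lower in 4 of 4 pairs by -0.20 (SE 0.11, limma adjusted p = 0.846). Dhps read 5.15, 4.95, 4.77 and 4.90 with empty vector and 4.82, 4.68, 4.802 and 4.65 with ATF4, lower in 3 of 4 pairs by -0.21 (SE 0.12, limma adjusted p = 0.846). Azin1 and Oaz1, which like Oaz2 bear on ornithine decarboxylase, were singled out after their values were seen. Azin1, an antizyme inhibitor that frees the enzyme from antizyme, differed by 0.51, 0.39, 0.16 and -0.17 (mean 0.22, SE 0.14, limma adjusted p = 0.846). The probe set of Oaz1, antizyme 1, read 1.39 to 3.61, at the 1.68 percentile by mean level and thus among the dimmest, and no direction is read from it (difference -0.11, SE 0.33, limma adjusted p = 0.970).

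In the methionine cycle, which supplies and recycles S-adenosylmethionine for spermidine, spermine and creatine, 0 genes passed the adjusted threshold. Of 19 listed genes 15 were measured, 7 higher and 8 lower, with a median of -0.02 beside 0.02 over all genes. The 1 gene with an unadjusted p under 0.05, Ahcy, is 6.67% of the list, close to the 6.00% of all probe sets. Ahcy, the hydrolase that clears S-adenosylhomocysteine, the by-product of Gamt and of other methyltransferases, read 3.92, 4.05, 3.62 and 3.51 with empty vector. With ATF4 it read 4.51, 4.71, 4.58 and 3.93. The ATF4 muscle was higher in 4 of 4 pairs, and only the ATF4 value of experiment 4 fell within the range of the empty vector muscles. Ahcy went from 3.78 ± 0.25 to 4.43 ± 0.35 (SD, n = 4), 1.57-fold higher (difference 0.65, SE 0.13, 95% interval 0.36 to 0.95, limma adjusted p = 0.431). Without each experiment in turn the difference stayed between 0.55 and 0.73. Its probe set lay at the 37.4 percentile by mean level.

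**Figure D3:**
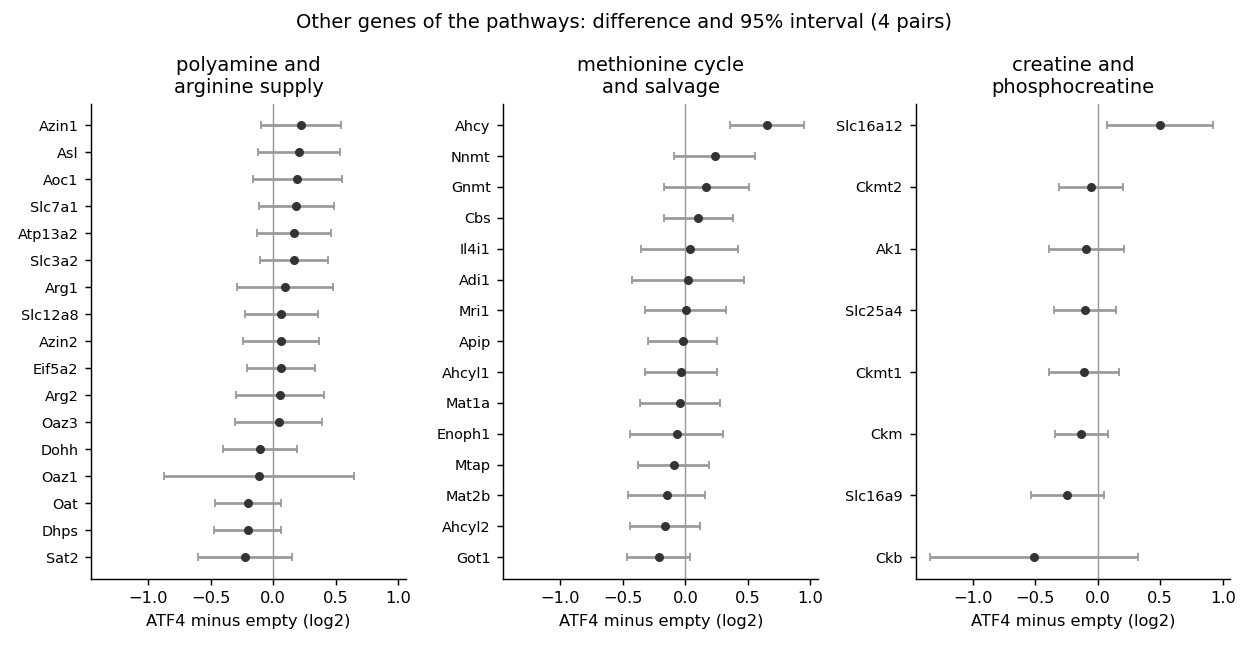
ATF4 minus empty vector (log2, horizontal axis) of the other measured genes of the pathways in 3 panels, with points for the mean of 4 pairs and bars for the 95% interval. Ahcy and Slc16a12 are the 2 of 40 genes whose unadjusted intervals exclude 0 (5%, against 6.00% of all probe sets), and Ckb and Oaz1 have the widest intervals.

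Genes of creatine transport and phosphocreatine turnover had 0 members past the test. Of 9 listed 8 were measured, 1 higher and 7 lower, with a median of -0.11, beside 6754 of 14860 genes lower and a median of 0.02 over all genes. The 6 measured muscle fibre markers, of which Ckm is one, were also lower in 6 of 6, with a mean difference of -0.05, and their part in these values was not tested. The higher one, Slc16a12, a membrane carrier known to move creatine, read 3.21, 3.37, 2.82 and 2.80 with empty vector and 3.50, 3.498, 3.26 and 3.93 with ATF4. It was higher in 4 of 4 pairs by 0.50 (SE 0.18, limma adjusted p = 0.787), or by 0.29 without experiment 4, at a level in the 12.4 percentile of all probe sets. The creatine kinases were singled out after their values were seen. Ckm, the cytosolic kinase of muscle, was lower in 4 of 4 pairs by -0.13 (SE 0.09, limma adjusted p = 0.853), and Ckmt2, the mitochondrial kinase of muscle, differed by -0.06 (SE 0.11, limma adjusted p = 0.950). Ckb, the brain-type kinase, differed by -2.07, -0.02, -0.51 and 0.54 in experiments 1 to 4, with the low reading of 3.54 in the ATF4 muscle of experiment 1, and its mean of -0.51 had an SE of 0.36 (limma adjusted p = 0.853).

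The genes whose levels ran most like those of Gamt and Smox are given as a description over the 8 arrays, which share pairs and group. For Gamt they were Chrnb1, a subunit of the muscle acetylcholine receptor (Pearson r = 0.927), Casq2, the cardiac calsequestrin (r = 0.901), and Olfr1090, an olfactory receptor gene (r = 0.880). Chrnb1 differed by 0.44 (SE 0.14), Casq2 by 0.71 (SE 0.18) and Olfr1090 by 0.74 (SE 0.21), each higher in 4 of 4 pairs. For Smox they were Helt, a bHLH transcription factor gene (r = 0.971), Slc4a4, a sodium bicarbonate cotransporter (r = 0.942), and Ppip5k1, an inositol pyrophosphate kinase (r = 0.930). Helt was lower in 4 of 4 pairs by -0.25 (SE 0.14), and Slc4a4 and Ppip5k1 in 3 of 4 by -0.18 (SE 0.13) and -0.24 (SE 0.13). These r are the highest among 14860 genes over 8 arrays and carry no test. Choosing genes by likeness to Gamt or Smox on the same arrays favours the same direction, so their differences and pair counts are no independent result. Over all probe sets 8.25% were higher and 6.64% lower in all pairs.

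**Figure D4:**
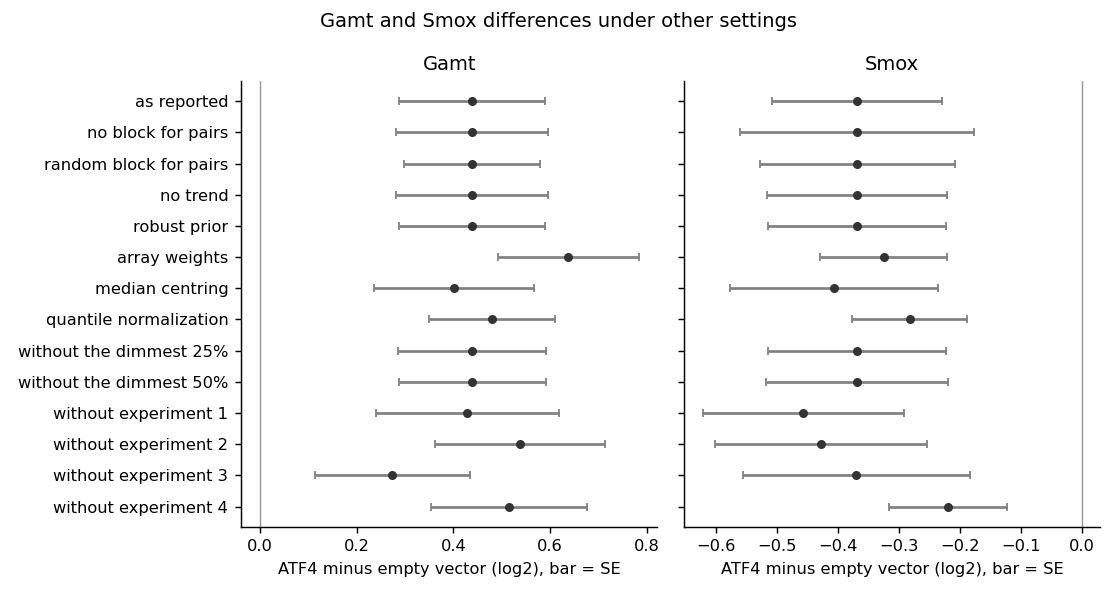
Gamt and Smox differences (ATF4 minus empty vector, log2, horizontal axes with their own ranges) as reported and under 13 other settings, with bars for ± 1 SE. Gamt ran from 0.27 to 0.64 and Smox from -0.46 to -0.22, and neither changed sign under any of them. Only median centring and quantile normalization could have changed it, as each gene had the same sign in all pairs.

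The exact permutation test by sign flips of the 4 paired differences gave Gamt, Smox and Srm the smallest two-sided p that 4 pairs allow, 1 in 8. It gave 0.25 for Sms and Gatm, 0.625 for Oaz2 and 1 for Slc6a8.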

How the data were processed

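Total RNA of muscle was amplified (SPIA) and biotin-labelled for the 8 arrays, per the labels' protocols. The authors deposited log2 values from RMA, which corrects background, normalizes arrays and summarises probe sets, per the submitters' processing notes. No RMA version is stated. The notes name hg18, a human build, so no gene coordinates are given for probe sets. Array medians of 4.29 to 4.44 show the log2 scale. Array SDs over all probe sets ran from 1.11 to 1.32, so the deposited arrays do not share a common distribution. Of 16755 probe sets 14996 have 1 annotated gene, 1019 several and 740 none; the annotation is GEO's. Entrez identifiers of 14941 matched the GRCm38.p6 table, and 0 symbols were updated. The row with the highest mean stood for a gene.

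All probe sets were fitted with limma 3.58.1 in R 4.3.3, as ATF4 minus empty vector with experiment as a fixed block and a variance trend, two-sided, with Benjamini-Hochberg adjustment. The fit was tested on simulated data. The pairing comes from the series design (both legs of the same mice). Deviations of paired arrays correlated at 0.07, 0.31, 0.55 and 0.05. P-values, SEs and intervals rest on the spread over experiments, whatever it contains, moderated by limma. Moderation draws each variance towards that of probe sets of similar level (prior df 4.96, residual df 3). For Srm the SD of the 4 paired differences was 0.02, while its SE was 0.11. The number of arrays limits the precision, and scanner signals were not used here. Members and lists were chosen with earlier results of these data known. Genes named were all members, genes of the 3 other pathway lists with an unadjusted p under 0.05 (otherwise the 2 of smallest p), all of Atf4 and its listed targets, and 3 genes of most similar level for 2 members; Azin1, Oaz1, Ckm, Ckmt2 and Ckb were added after their values were seen. The 13 alternatives are in the closing section.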

Additional observations from a re-analysis of the deposited data

Results flagged for a closer look

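A pair of readings stood far from the other 3 of their group, among 22 groups of 4 arrays tested, where chance alone flags about 5% of groups. Oaz2 with empty vector read 5.97 in experiment 1 against 6.73 to 6.80 in the other 3. Gatm with empty vector read 5.26 in experiment 3 against 4.65 to 4.74, and the ATF4 muscle of that experiment was also the highest of its group, at 5.37.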

How the results depend on the processing

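Under the 13 alternatives, no member and no gene of the other 3 lists passed the adjusted threshold. Gamt, Gatm, Srm, Sms and Smox kept their direction in all 13. For Gamt, Srm and Smox, with the same sign in all pairs, only median centring and quantile normalization could have reversed it. Slc6a8 turned negative with median centring (-0.035) and without experiment 2 (-0.007), 3 (-0.016) or 4 (-0.038), with a range of -0.038 to 0.071 without 1 experiment. Oaz2 turned positive without experiment 2, and ranged from -0.44 to 0.14 without 1 experiment. The probe sets past the threshold, 3 as reported, were 18 with array weights, 13 with a random block, 7 and 12 without the dimmest 25% and 50%, 0 with median centring and with no variance trend, and 0 to 2 without 1 experiment. The cause was not tested. Without the block for the pairs Gamt stayed at 0.44 and Smox at -0.37 (both limma adjusted p = 1.00), and 609 probe sets, against 1006, had an unadjusted p under 0.05. That count was 589 without the dimmest 50%, where fewer were tested. The other polyamine list had a median of 0.17 without the dimmest 50%. The median of the methionine list was 0.004 without experiment 4. Each measured member had 1 probe set, so averaging probe sets was not run. Slc16a12 has no value without the dimmest 25% or 50%, and Ahcy none without the dimmest 50%.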
